A study of Mus musculus with 6 samples.

Results

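The genes described here are 10 members of the FGF/ERK signalling pathway in mouse embryonic stem cells, of which 5 encode FGF ligands (*Fgf4*, *Fgf5*, *Fgf8*, *Fgf15* and *Fgf17*) and 5 encode inhibitors that ERK signalling induces (*Spry1*, *Spry2*, *Spry4*, *Dusp6* and *Spred1*). They were chosen by name, as the FGF ligands of embryonic stem cells and epiblast together with ERK feedback genes, and each had 1 entry among the 19338 gene symbols of the deposited table. Nuclear RNA was sequenced from 6 libraries of RYBPfl/fl;YAF2-/- ES cells, a line expanded from a single colony after deletion of *Yaf2* with Cas9. Of these, 3 libraries came from untreated cells (UNT) and 3 from cells kept for 96 hr in 4-hydroxytamoxifen (OHT) at 800 nM, which recombines the floxed *Rybp* alleles. Both groups thus lacked *Yaf2* and grew in serum and leukemia-inhibiting factor, and no OHT-treated line without floxed *Rybp* was analysed here.

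The value used for each gene is the authors' base mean, the read count normalized for library size and averaged over all 6 libraries, so that it gives the level of a transcript in UNT and OHT cells together. Levels in UNT and OHT cells apart, the change between them and the spread between replicates were not analysed here. Differences between genes below are therefore described without a test, and which neighbours in an order differ beyond their error was not tested. The depth of single libraries is unknown. A base mean above 0 was recorded for 19198 of 20633 entries, with a median of 306.7 and quartiles of 25.9 and 1260.2. A base mean can be larger for a longer gene, so base means are given here as each gene's own value and its place among all entries, and ratios between genes are given as base mean per kilobase (kb) of transcribed span, introns included, for which the median over entries above 0 was 13.7. Where exon length in place of span changed such a ratio by over 1.5 times or turned it, that value is given beside it. The base mean of *Rybp*, 13983, averages cells before and after deletion and so cannot check the labels, and that of *Yaf2* was 3.24.

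FGF ligands are secreted proteins that bind FGF receptor tyrosine kinases at the cell surface. The receptors act through adaptor proteins, RAS, RAF and MEK to phosphorylate the ERK kinases, which in turn induce genes encoding their own inhibitors. In mouse embryonic stem cells FGF4 is known as an autocrine signal that prepares cells to leave the pluripotent state, whereas FGF5 marks the epiblast after implantation and FGF8, FGF15 and FGF17 are known from gastrulation and from neural and tail bud patterning.

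*Fgf4* and all of the feedback inhibitors lay above the median base mean of all entries, and the remaining ligands lay below it. The inhibitors ranged from 335.7 for *Spry1* to 4974 for *Spred1*, with a median of 1904. *Fgf4* had a base mean of 3669, whereas the other 4 ligands ranged from 6.02 for *Fgf8* to 94.3 for *Fgf17*. In total 6 of the 10 genes were at or above the median base mean, 5 of 5 inhibitors and 1 of 5 ligands. Per kb of span these were 7 of 10, with 2 of 5 ligands, since *Fgf17* then lay above the median as well.

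**Figure D1:**
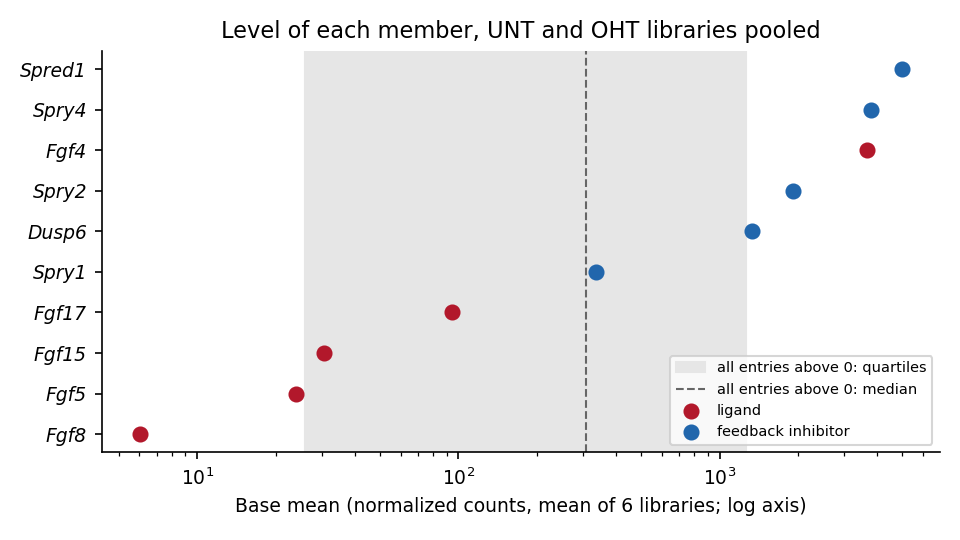
Base mean of each gene (normalized counts averaged by the authors over 6 libraries, log axis), with ligands in red, feedback inhibitors in blue, the quartiles of all entries above 0 as a grey band and their median as a dashed line. Every inhibitor and *Fgf4* lie right of the median of 306.7, and the other ligands lie left of it, down to 6.02 for *Fgf8*.

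Per kb of span, *Fgf4* was the highest of the 10 genes at 951.0, at percentile 99.3 of all entries above 0. *Spry2* (390.7) and *Dusp6* (312.3) followed, and *Fgf4* exceeded *Spry2* 2.43-fold (1.33-fold per kb of exons). *Spry4* (250.4), *Spred1* (97.1) and *Spry1* (72.2) came next. The second ligand in the order, *Fgf17*, stood at 15.5, 4.64-fold below *Spry1* (2.45-fold per kb of exons), and *Fgf15* (6.93), *Fgf5* (1.14) and *Fgf8* (0.991) closed it. The 10 genes thus spanned a 959.9-fold range in level per kb, and the inhibitors among themselves a 5.41-fold range. Per kb of exons these ranges were 640.8-fold, from *Spred1* to *Fgf8*, and 25.2-fold, from *Spred1* to *Spry1*. Some neighbours in this order were close, such as *Spry2* and *Dusp6* at a ratio of 1.25 and *Fgf5* and *Fgf8* at 1.15, which were 1.92 and 7.42 per kb of exons.

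The order at the top depended on the length used. Divided by exon length in place of span, *Spred1* came first with 3454 per kb and *Fgf4* second with 1211, followed by *Spry2* at 912.1, *Spry4* at 798.7 and *Dusp6* at 475.5. Without any division by length *Spred1* was also first and *Fgf4* the third. The annotated transcript of the *Spred1* entry spans 51217 bp, of which exons make up 2.81%, whereas exons make up 78.5% of the 3858 bp of *Fgf4*. The level of *Spred1* per kb of exons, and the ranges that start from it, rest on this transcript's exon length. Exon lengths of other *Spred1* transcripts were not tried. *Spry1* was the sixth of the genes, *Fgf17* the seventh and *Fgf8* the last under every length tried. The authors aligned reads that STAR left unmapped using bowtie2, with the aim of mapping more nascent, intronic RNA. How far intronic reads entered each count is not given in the sources used here.

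**Figure D2:**
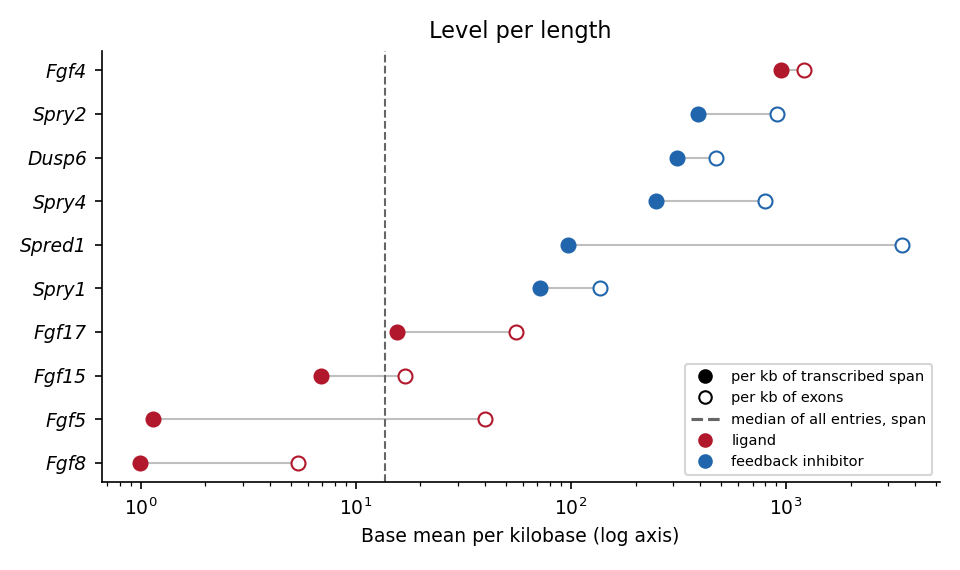
Base mean per kb of transcribed span (filled points) and per kb of exons (open points) for each gene on a log axis, with ligands in red, feedback inhibitors in blue and the median of all entries per kb of span (13.7) as a dashed line. *Fgf4* leads by span at 951.0, and *Spred1*, with 2.81% exons, and *Fgf5* move furthest to the right when exon length is used, *Spred1* to 3454.

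Promoter sequence was examined as a feature that played no part in the choice of the genes. RYBP is a subunit of variant PRC1, a Polycomb complex that ubiquitylates histone H2A and is known to be recruited to CpG-rich start sites. A promoter window of 250 bases before and 50 bases after the start site was taken from RefSeq (GRCm38.p6) for 6 of the 10 genes, *Fgf4*, *Fgf5*, *Spry1*, *Spry2*, *Dusp6* and *Spred1*. *Fgf8*, *Fgf15*, *Fgf17* and *Spry4* were not used here. The 250 bases before the start are shown for *Fgf4*, the ligand with the highest level, for *Fgf5*, a CpG-rich ligand gene with a low level, and for *Spry2* and *Dusp6*, the highest inhibitors per kb of span. Capitals mark CpG dinucleotides, and each sequence reads 5′ to 3′ in the sense of the gene. The windows lie at chr7:144861136-144861385 (plus strand), chr5:98253934-98254183 (plus strand), chr14:105896820-105897069 (minus strand) and chr10:99262981-99263230 (plus strand) in the same order.
Fgf4: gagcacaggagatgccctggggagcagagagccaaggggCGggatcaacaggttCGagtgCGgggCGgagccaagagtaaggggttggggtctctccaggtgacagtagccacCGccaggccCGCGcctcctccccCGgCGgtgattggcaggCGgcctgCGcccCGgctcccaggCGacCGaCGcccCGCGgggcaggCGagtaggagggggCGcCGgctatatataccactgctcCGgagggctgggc
Fgf5: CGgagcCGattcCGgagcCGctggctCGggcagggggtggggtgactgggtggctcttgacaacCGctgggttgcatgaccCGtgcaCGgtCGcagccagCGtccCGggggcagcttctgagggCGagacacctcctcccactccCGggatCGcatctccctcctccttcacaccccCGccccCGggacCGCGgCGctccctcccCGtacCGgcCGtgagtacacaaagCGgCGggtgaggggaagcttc
Spry2: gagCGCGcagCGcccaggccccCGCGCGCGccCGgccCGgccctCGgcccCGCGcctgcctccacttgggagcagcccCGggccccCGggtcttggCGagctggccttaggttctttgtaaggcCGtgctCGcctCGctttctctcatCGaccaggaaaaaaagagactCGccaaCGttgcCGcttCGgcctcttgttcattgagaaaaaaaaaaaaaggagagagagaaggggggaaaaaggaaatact
Dusp6: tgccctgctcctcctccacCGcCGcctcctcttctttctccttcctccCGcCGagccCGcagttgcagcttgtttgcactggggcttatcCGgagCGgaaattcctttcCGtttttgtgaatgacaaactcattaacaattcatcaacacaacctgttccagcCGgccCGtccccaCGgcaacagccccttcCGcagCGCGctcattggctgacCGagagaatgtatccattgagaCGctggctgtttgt

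The shown stretches hold 21 CpGs in *Fgf4*, 24 in *Fgf5*, 23 in *Spry2* and 16 in *Dusp6*. All 6 windows were CpG-rich, defined as an observed over expected CpG ratio of at least 0.6 and a GC content of at least 50%. Of the 18833 windows of genes with an entry in the table, 50.6% met this definition, with 72.5% among genes at or above the median base mean and 28.8% among genes below it. The ratio ranged from 0.774 in *Fgf4* to 1.03 in *Spred1*, against a median of 0.636 over all windows. *Fgf5*, with a base mean of 24.0, had a ratio of 0.828 and a GC content of 68.3%, close to the 69.7% of *Fgf4*. Between these ligand genes the level per kb of span differed 834.6-fold and that per kb of exons 30.3-fold. The lowest GC content was that of *Dusp6*, 57.3%. The annotated transcript of the *Fgf5* entry starts 228 bp from the start site of its window and that of *Spred1* 567 bp from it, and for the other 4 genes the starts coincided.

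**Figure D3:**
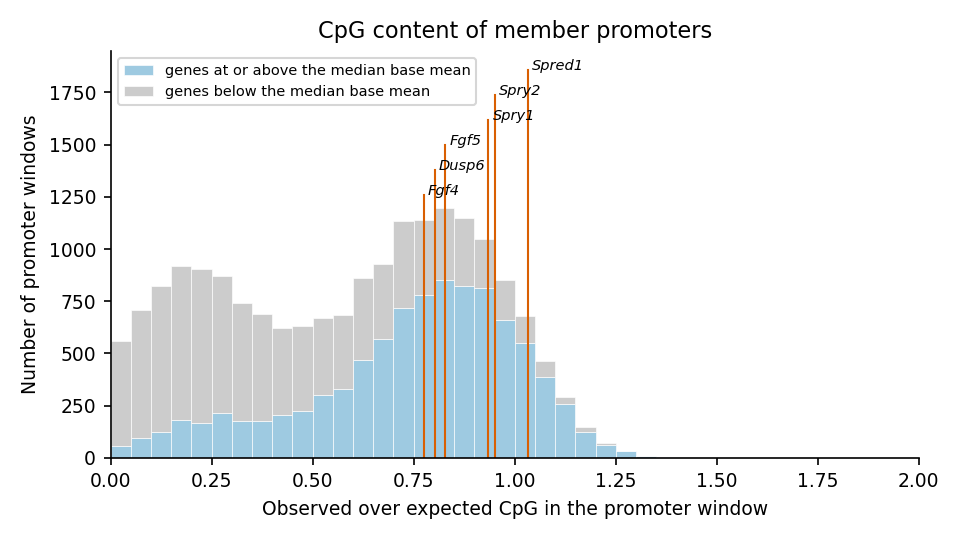
Histogram of the observed over expected CpG ratio in promoter windows from 250 bases before to 50 after the start site (x axis, no unit; y axis, number of windows), stacked by whether the gene lay at or above (blue) or below (grey) the median base mean, with the genes described here as orange lines whose heights carry no value. All 6 lines, from 0.774 for *Fgf4* to 1.03 for *Spred1*, lie above the minimum of 0.6.

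Short motifs were searched on both strands of the same windows, overlapping matches included. The GC box GGGCGG, known to bind SP and KLF factors, was found in 4 of the 6 windows, with 3 matches in *Spred1*, 2 in *Fgf4*, 1 in *Fgf5* and 1 in *Spry1*, and in 51.2% of all windows. The ETS core CGGAAG, which factors activated by ERK can bind, was found in *Dusp6* and *Spred1* and in 22.8% of all windows. CCAAT was found in *Fgf4*, *Spry1* and *Dusp6* and in 37.0% of all windows, and TATAAA in *Fgf5* and in 9.93% of all windows. The *Fgf5* match to TATAAA lies 35 bases after the start site. Only these exact letters were counted, so a variant such as the TATATATA in the shown *Fgf4* stretch was not. The AP-1 site TGANTCA and the cAMP response element TGACGTCA were found in 0 of the 6 windows and in 6.54% and 2.44% of all windows. *Spry2* had no match to any of the motifs in this window.

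*Fgf4* (chromosome 7 of mm10, 144861386 to 144865243, plus strand, 3 exons) encodes the FGF ligand that embryonic stem cells are known to secrete. Among the pluripotency factors that activate it, *Sox2* had a level per kb of span of 1951, 2.05-fold above *Fgf4*, and *Pou5f1* (OCT4) one of 639.0, 1.49-fold below *Fgf4*. The order of *Fgf4* and *Pou5f1* turned per kb of exons, where *Pou5f1* was 1.84-fold above *Fgf4*. *Fgf4* was the highest of the 22 mouse FGF genes by span, by exon length and by base mean. It made up 94.7% of the summed level of the family per kb of span, 62.0% per kb of exons and 70.4% of the summed base means. The next gene was *Fgf17* per kb of span, 61.2-fold lower, but *Fgf13* per kb of exons, 6.73-fold lower. *Fgf5* and *Fgf6*, of the same subfamily as *Fgf4*, had levels per kb of 1.14 and 0.153.

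*Fgf15* (chromosome 7, 144896531 to 144900953, plus strand, 3 exons) encodes an endocrine FGF known in the adult for repressing bile acid synthesis and in the embryo for its expression in the neural tube. It lies 31287 bp downstream of *Fgf4* on the same strand, and no other gene of the table lies between them. Its base mean of 30.6 was at percentile 26.2, and its level per kb was 137.3-fold below that of *Fgf4* (71.5-fold per kb of exons). On the other side of *Fgf4*, at a distance of 16949 bp, *Fgf3* had a base mean of 14.3 and a level per kb 389.1-fold below (195.0-fold per kb of exons). Beyond *Fgf15*, *LTO1*, a gene needed for ribosome biogenesis, stood at 27.9 per kb and *Ccnd1*, which encodes cyclin D1, at 113.1 per kb, 16.3-fold above *Fgf15*. The high level at this locus was thus that of *Fgf4* alone among its FGF genes. On the opposite strand *Fgf15* is overlapped by *Gm39119* over 1641 bp and by *Gm26793* over 931 bp, and whether counting used strand is not given in the sources used here, so that reads from these could not be told apart. The other endocrine FGF genes, *Fgf21* and *Fgf23*, stood at 5.03 and 1.26 per kb, below the 6.93 of *Fgf15*.

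**Figure D4:**
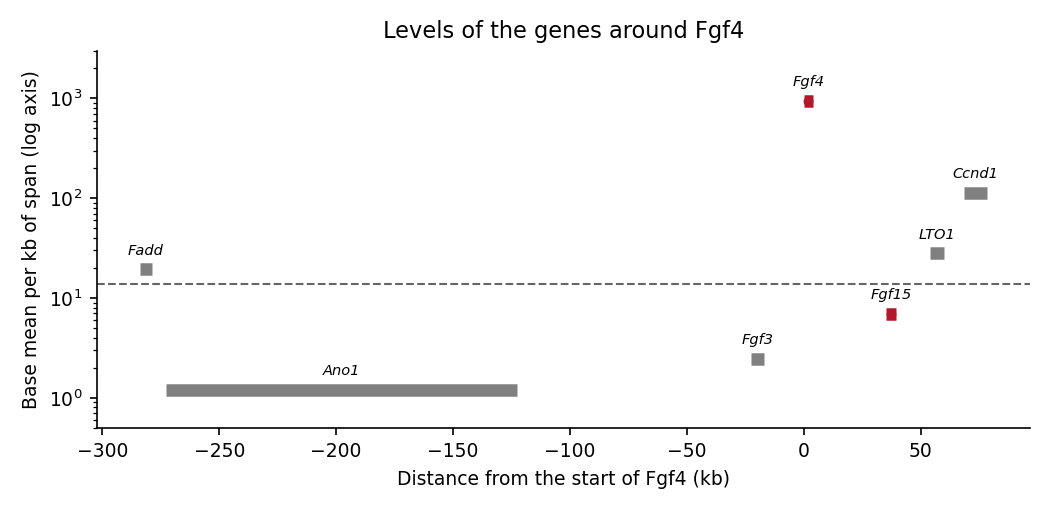
Base mean per kb of span (log axis) of each gene around *Fgf4*, drawn as a bar over its distance from the start of *Fgf4* in kb, with *Fgf4* and *Fgf15* in red and the median of all entries (13.7) as a dashed line. *Fgf4* at 951.0 stands over *Fgf3* at 2.44 and *Fgf15* at 6.93 on either side.

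*Fgf17* (chromosome 14, 70636203 to 70642268, minus strand, 5 exons) and *Fgf8* (chromosome 19, 45736798 to 45742874, minus strand, 6 exons) belong, with *Fgf18*, to a subfamily that acts in gastrulation and at the midbrain-hindbrain boundary. *Fgf17* had a base mean of 94.3 at percentile 35.7. *Fgf8* had a base mean of 6.02 at percentile 15.3, the lowest of the 10 genes. Their spans are alike, 6066 and 6077 bp, and *Fgf17* was 15.7-fold above *Fgf8* per kb of span and 10.4-fold above it per kb of exons. *Fgf18* stood at 2.55 per kb of span, 6.09-fold below *Fgf17*, but per kb of exons it was 1.26-fold above *Fgf17*. *Npm3*, which encodes a nucleolar histone chaperone and lies 4859 bp from *Fgf8*, had a level per kb of 218.3, which was 220.4-fold above *Fgf8* (84.8-fold per kb of exons). The level per kb of *Fgf8* was at percentile 22.5. *Fgf17* lies 224 bp from *Dmtn* on the same strand, which had 20.1 per kb against 15.5 for *Fgf17*, and 252.3 against 55.8 per kb of exons.

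*Fgf5* (chromosome 5, 98254412 to 98275461, plus strand) was counted on an entry whose annotated transcript has 2 exons totalling 600 bp over a span of 21050 bp. Its base mean of 24.0 was at percentile 24.5, and the level per kb of span was at percentile 23.7. Per kb of exons it was 40.0, above the 16.9 of *Fgf15*, so that the order of *Fgf5* and *Fgf15* turned with the length used. Exons make up 2.85% of this span. The values of *Fgf5* per kb of exons rest on this transcript's exon length, and those of other *Fgf5* transcripts were not tried. Among other epiblast genes, *Dnmt3b*, a DNA methyltransferase, stood at 77.4 per kb of span, *Lefty2*, a Nodal inhibitor, at 426.4 and *T* (Brachyury), a primitive streak factor, at 2.79. The remaining epiblast markers with an entry, *Pou3f1* and *Otx2*, stood at 45.9 and 19.3 per kb of span. Their base means of 176.5 and 180.6 were below the median entry.

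Among the inhibitors, the Sprouty proteins are membrane-associated antagonists that act on signalling between the receptor and RAF. *Spry4* (chromosome 18, 38586247 to 38601415, minus strand, 2 exons) had a base mean of 3798 at percentile 91.7. *Spry2* (chromosome 14, 105891947 to 105896819, minus strand, 2 exons) had 1904 at percentile 82.3. *Spry1* (chromosome 3, 37639947 to 37644598, plus strand, 3 exons) had 335.7 at percentile 51.4, close to the median entry. The spans of *Spry1* and *Spry2* are nearly equal, 4652 and 4873 bp, and *Spry2* was 5.41-fold above *Spry1* per kb. *Spry3*, the remaining family member, had a base mean of 8.99. An antisense gene, *Gm42922*, overlaps *Spry1* over 710 bp, and *Gm27369* and *Gm27804* overlap *Spry4* on the opposite strand over 71 and 119 bp.

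*Spred1* (chromosome 2, plus strand) encodes a Sprouty-related protein that recruits neurofibromin, the product of *Nf1*, to shut off RAS. It was counted on an entry whose annotated transcript lies at 117121638 to 117172854 and has 5 exons totalling 1440 bp. The whole *Spred1* gene in RefSeq spans 61209 bp. Its base mean of 4974 was at percentile 94.4, and its level per kb of span of 97.1 was at percentile 86.8. *Nf1* had a base mean of 6149 and 25.4 per kb, and *Spred3*, a paralog, 148.4 and 15.1 per kb. *Spred2* had no entry.

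*Dusp6* (chromosome 10, 99263231 to 99267488, plus strand, 3 exons) encodes a cytoplasmic phosphatase that removes the activating phosphates from ERK. It had a base mean of 1330 at percentile 76.0 and a level per kb at percentile 97.1. *Dusp9*, a phosphatase of the same subfamily, was at nearly the same level, with a base mean of 1344 and 328.1 per kb, a ratio of *Dusp6* to *Dusp9* per kb of 0.952. The third of this subfamily, *Dusp7*, stood at 41.6 per kb. The nuclear phosphatases *Dusp4* and *Dusp5* stood at 63.1 and 21.4 per kb.

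The other genes of the pathway were described from lists by function. Of the 22 FGF genes, 3 were at or above the median base mean (13.6%), *Fgf4*, *Fgf13* (402.3) and *Fgf1* (365.4), and the list had a median of 23.8 at percentile 24.5. *Fgf13* encodes an intracellular protein that does not act through FGF receptors, and spread over its long span it stood at 0.795 per kb. Of the 21 FGF genes other than *Fgf4*, 20 were below the median entry per kb of span, the exception being *Fgf17*. Per kb of exons *Fgf17* had rank 6 among the 22 FGF genes. The lowest base mean of the family was that of *Fgf16*, 0.586.

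Among 7 receptors and coreceptors, 3 were at or above the median base mean. *Fgfr1* had a base mean of 2461 and 44.0 per kb, *Fgfr2* 1267 and 12.4 per kb, *Fgfr3* 336.8 and 21.9 per kb, and *Fgfr4* 175.0 and 10.9 per kb. *Fgfr1* was the highest receptor per kb, 3.56-fold above *Fgfr2* by span and 1.60-fold by exon length. The order of *Fgfr2* and *Fgfr3* turned per kb of exons, where *Fgfr2* stood at 381.3 and *Fgfr3* at 79.3. The Klotho coreceptors that endocrine FGFs need were low, with a base mean of 9.21 for *Kl* and 27.7 for *Klb*.

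Of 19 genes of the cascade from receptor adaptors to ERK, 17 were at or above the median base mean, with a list median of 2177 at percentile 84.2. The adaptors *Gab1* and *Frs3* had base means of 9646 and 195.2, and stood at 83.1 and 21.5 per kb of span. Of the 16 negative regulators 15 had an entry, all but *Spred2*. Of these 15, 11 were at or above the median base mean and 14 at or above the median per kb of span. These counts include the 5 inhibitors above. Per kb of span *Spry2* was the first of the 15, *Dusp6* the third, *Spry4* the fourth, *Spred1* the fifth and *Spry1* the sixth. Per kb of exons, known for 14 of them, *Spred1* had rank 1, *Spry2* rank 2, *Spry4* rank 3, *Dusp6* rank 7 and *Spry1* rank 11. Of 14 transcription factor genes of the ERK response, 11 were at or above the median. *Etv5* (6082) and *Etv4* (2049), ETS factors known as FGF targets in the early embryo, and the immediate early genes *Fos* (1330) and *Egr1* (1347) were among them, whereas *Fosl1* had 33.5. The median splits the entries above 0 evenly by its definition, and these counts carry no test.

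**Figure D5:**
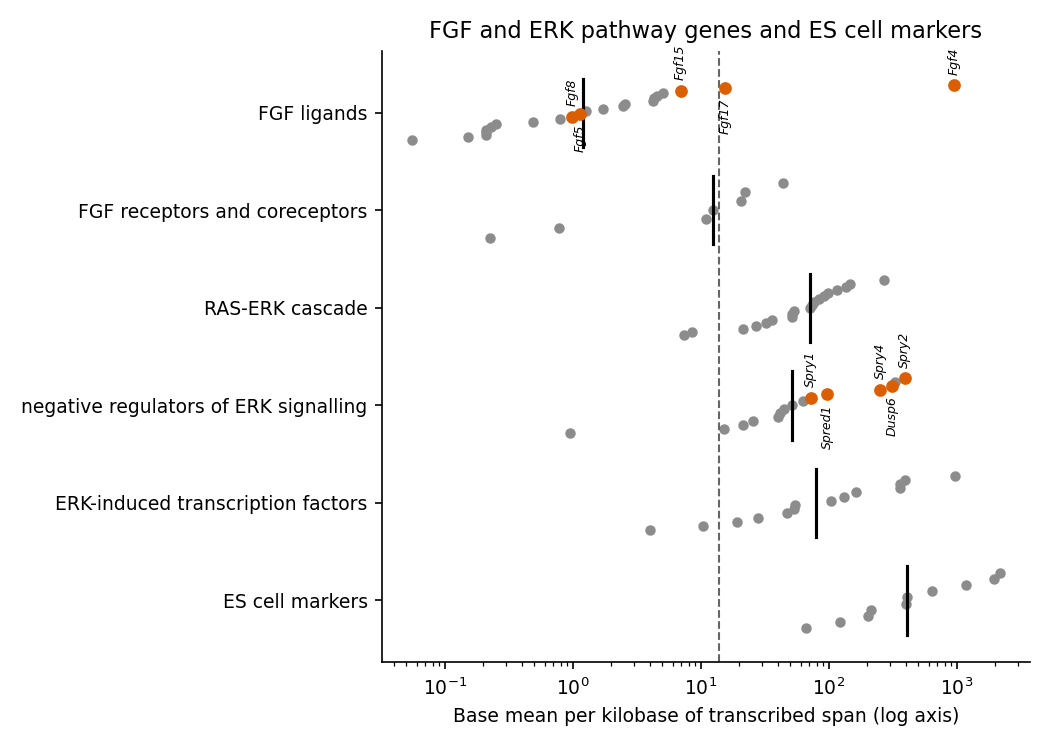
Base mean per kb of span (log axis) of each gene of the pathway lists and of ES cell markers, 1 point per gene spread vertically by rank, with the 10 genes described here in orange, the median of each list as a black bar and the median of all entries (13.7) as a dashed line. *Fgf4* stands apart from the other FGF genes, and the 5 inhibitors lie in the upper part of the negative regulators.

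The labelled cell type was checked against markers. All of the 10 ES cell markers were above the median, from 1272 for *Dppa4* to 14300 for *Tdgf1*. Markers of primitive endoderm (1 of 7 at or above the median, highest *Dab2* with 461.2), trophoblast (1 of 5, *Tfap2c* with 1131, with *Cdx2* at 73.4) and fibroblasts (1 of 7, *Col1a1* with 369.3, with *Postn* at 1.35) were mostly below it, and epiblast markers had 2 of 6. Per kb of span these counts were 0, 1 and 2 in the same order, and 4 of 6 for the epiblast markers. *Nodal* of the epiblast list and *Krt8* of the trophoblast list had no entry. The epiblast list includes *Fgf5*, so it is not independent of the genes described here. In bulk samples a few cells with a high level and many cells with a low level cannot be told apart, and this holds for the low values of *Fgf5*, *Fgf8*, *Fgf15* and *Fgf17*.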

How the data were processed

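Nuclear RNA-seq (40 bp paired-end reads, rRNA-depleted, directional kit) covered 3 UNT and 3 OHT libraries. The authors discarded rRNA reads using bowtie2, mapped the rest to mm10 using STAR, with bowtie2 for reads left over, counted pairs per gene of a filtered refGene set and used DESeq2 at its defaults. The deposited base mean is a signal, the normalized count averaged by the authors over all 6 libraries. The remaining columns hold the authors' comparison of OHT with UNT (log2 fold change, standard error, Wald statistic, p-value and adjusted p-value) and were not used, so no test between groups was run. The planned count test was not run because counts per library were not used here.

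A symbol was found for 20560 of 20633 entries by matching RefSeq genes (GRCm38.p6) and GENCODE vM21, whose coordinates are those of mm10, and 1 entry per symbol was kept, that with the highest base mean. Transcribed spans came from GENCODE transcripts for 20261 entries and from RefSeq genes for 299, leaving 73 without a length. Percentiles count entries above 0 at or below a value. Python 3.11.15, numpy 2.4.6, pandas 2.3.3, scipy 1.17.1 and matplotlib 3.10.9 were used, and the functions were tested on simulated data. The rule for genes named covered the 10 genes, the highest and lowest of each list, FGF receptors, close paralogs, gene neighbours, *Rybp* and *Yaf2*, and some genes under it are not reported here. Other list genes were named after their values were seen. The genes and lists were chosen with earlier results of these data known.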

Additional observations from a re-analysis of the deposited data

How the results depend on the processing

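No paired analysis was possible because the base mean pools all libraries, and leaving out a replicate, other normalizations and a filter on counts were not run for the same reason. Protein identity was not run because protein sequences were not used here. The number of the 10 genes at or above the median, 6, was the same with entries at 0 included, with 1 entry per symbol and with summed entries, and came to 5 with only entries of a base mean of at least 10, which left *Spry1* below. Per kb of span it was 7. *Fgf4* moved from rank 1 per kb of span to rank 2 per kb of exons and to rank 3 without division by length, and *Spred1* from rank 5 to rank 1 in both. With spans of whole RefSeq genes, an alternative chosen after seeing the data, both ranks were the same. At a base mean of at least 10, against the median, 16 of 22 FGF genes in place of 3 and 6 of 7 receptors and coreceptors in place of 3 passed. At a base mean of at least 100 they were 6 and 5. Of all entries above 0, 81.4% had a base mean of at least 10 and 63.7% one of at least 100. All 6 promoter windows stayed CpG-rich under the stricter minimums of 0.65 and 55%. Depth per library is unknown, so the precision of low values such as the 6.02 of *Fgf8* cannot be given.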
